A study of Mus musculus with 9 samples.

Results

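Spink6, Prodh2, Ppp1r1b, Spns2, Gtf2h2 and Elfn1 were low in kidneys of mice lacking Pkd2 and higher both in mice lacking Pkd2 together with Ift88 and in wild type mice. These 6 genes, of 22161 in the deposited table, were chosen by symbol for that pattern, so the low values in the Pkd2 knockout describe the choice and are given without a test. Pkd2 encodes polycystin-2, a cation channel of the primary cilium and the endoplasmic reticulum whose gene carries mutations in autosomal dominant polycystic kidney disease. Ift88 encodes an intraflagellar transport protein without which cilia are not built.

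Poly(A) RNA was sequenced from the kidneys of 9 C57BL/6 mice, 3 in each of 3 groups. The double knockout carried Ift88fl/fl, Pkd2fl/fl, Pax8rtTA and TetO-cre. The Pkd2 knockout carried Pkd2fl/fl, Pax8rtTA and TetO-cre. The third group is labelled only as wild type, and whether it carried the transgenes is not given. Every mouse drank doxycycline at 2 mg/ml for 2 weeks starting at postnatal day 28, and kidneys were taken at postnatal day 70 (10 weeks). The Pax8 promoter limits the doxycycline-driven cre to kidney tubule epithelium, so the whole kidney also holds cells in which the alleles were not removed.

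The 6 genes have unrelated functions. Spink6 is a Kazal-type inhibitor of serine proteases, known in human skin as an inhibitor of kallikrein-related peptidases. Prodh2 is the mitochondrial hydroxyproline dehydrogenase, which begins the breakdown of the hydroxyproline released from collagen and is known from liver and kidney. Ppp1r1b (DARPP-32) becomes an inhibitor of protein phosphatase 1 when protein kinase A phosphorylates it, and in rat kidney it is known from the thick ascending limb. Spns2 exports sphingosine 1-phosphate from cells, Gtf2h2 is the p44 subunit of the transcription and DNA repair factor TFIIH, and Elfn1 is a leucine-rich repeat membrane protein that recruits metabotropic glutamate receptors at brain synapses and binds protein phosphatase 1.

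The sequence just before the annotated start is shown for Prodh2. It is the 178 bases at chr7:30493408-30493585 on the plus strand of GRCm38.p6, taken from RefSeq. Gtf2h2 had only 35 bases before the outermost annotated start, Spns2 and Elfn1 had 0, and no sequence was available for Spink6 and Ppp1r1b.

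Prodh2: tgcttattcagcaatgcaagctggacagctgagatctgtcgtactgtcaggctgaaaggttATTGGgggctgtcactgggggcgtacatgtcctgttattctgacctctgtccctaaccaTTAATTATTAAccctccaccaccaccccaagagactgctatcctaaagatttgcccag

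The capitals mark the matches to 2 of 8 motifs searched on both strands. ATTGG is the CCAAT box read on the minus strand, which 24.6% of 32851 windows of the same length held. TTAATTATTAA matches the core of the HNF1 motif, in which the sixth of the 11 letters may be any base and the others are as printed, and which 0.07% of those windows (23) held. HNF1 factors are transcription factors of kidney tubule and liver, and the letters of this motif were chosen after the Prodh2 sequence had been seen. No match was found to CAAAGTCCA, the HNF4 site held by 0.25% of windows, or to TGACGTCA, the cyclic AMP response element held by 0.572%. The E-box CACGTG, held by 3.64%, and the GC box GGGCGG, held by 20.7%, had none either. The same was true of the TATA box TATAAA, held by 8.29% of windows, and of the ETS site CCGGAAG, held by 3.27%. A match describes letters and does not show binding.

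The libraries were of similar size, with normalized totals of 40454151 to 42874467 and, in the 7 libraries whose whole reads could be recovered, 37056843 to 47314829 reads. Pkd2 fell in both mutants as their labels require, with means of 4687 ± 789 in the double knockout, 5118 ± 414 in the Pkd2 knockout and 14095 ± 375 normalized counts in wild type (SD, n = 3 each; limma adjusted p = 0.000843 for the double and 0.000972 for the Pkd2 knockout, both against wild type, the second lost with edgeR on the recovered reads). Ift88 averaged 752 ± 71.4 in the double knockout, 1140.2 ± 66.0 in the Pkd2 knockout and 1085 ± 41.0 in wild type, and it was lower in the double than in the Pkd2 knockout (adjusted p = 0.0358). That Ift88 call was lost in 6 of 9 fits that left out 1 mouse (replicates 1 and 2 of each group; adjusted p up to 0.125), with only the 2 groups compared and on the 7 libraries, and Ift88 did not pass between double knockout and wild type (adjusted p = 0.0617). Markers of kidney tubule were abundant in every library: 15 proximal tubule markers summed to 1243970 to 1391200 in the double knockout, 1220890 to 1294250 in the Pkd2 knockout and 1258620 to 1282360 in wild type. Other marker sums had the 3 Pkd2 knockout mice apart, as the 6 genes do: 10 intercalated cell markers summed to 16577 to 23127 in the double knockout, 15447 to 15978 in the Pkd2 knockout and 19360.2 to 20265 in wild type, and 8 podocyte markers to 17088 to 19133 in the double knockout, 15137 to 16287 in the Pkd2 knockout and 18712 to 19714 in wild type. The 8 macrophage markers summed to 4443 to 5110 in the double knockout, 5244 to 6813 in the Pkd2 knockout and 4412 to 5056 in wild type. Their part in the results was not tested. Replicate 3 of the Pkd2 knockout stood apart in 5 erythroid markers, which summed to 6174 there and to at most 1012 in any other library. Mouse name prefixes differ between groups and, within the Pkd2 knockout and wild type groups, between replicate 3 and the other replicates, so prefix and genotype cannot be told apart. In whole kidney, fewer cells of a type and less RNA per cell cannot be told apart either.

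Across all 15740 genes tested, 2.4% were called between Pkd2 knockout and wild type (1.25% lower), 0.394% between double and Pkd2 knockout (0.127% higher and 0.267% lower) and 0.229% between double knockout and wild type (0.0762% higher and 0.152% lower), at a limma adjusted p below 0.05. With shares this low, a short list with no call is near the background. The share of all genes at an unadjusted p under 0.05 was not counted. Counts at that level in the lists below are therefore not read as many or few. All 6 genes were tested. The genes called both lower in the Pkd2 knockout than in wild type and higher in the double than in the Pkd2 knockout numbered 6 (0.0381%), and they were these 6. The 3 Pkd2 knockout values lay below all wild type values in 12.8% of genes tested, below all double knockout values in 7.4% and below all 6 others in 3.59% (565 genes), and these 6 genes are among them by choice.

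**Figure D1:**
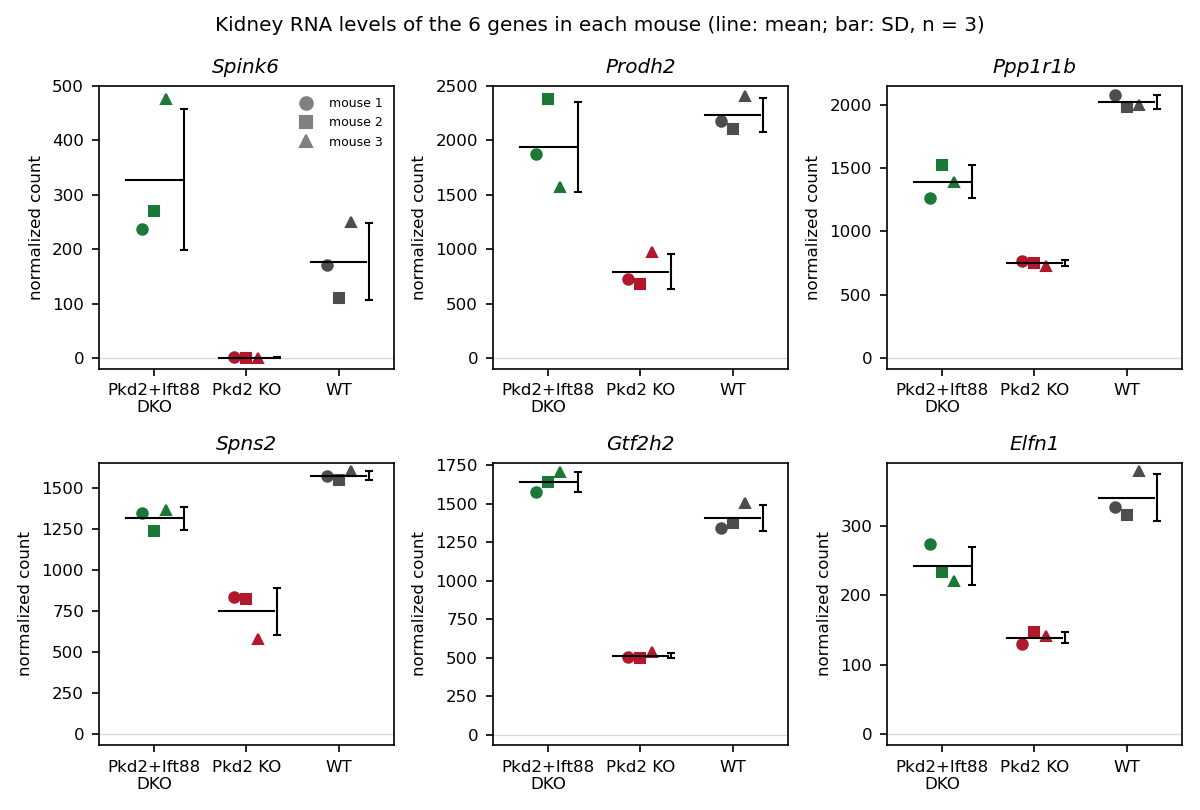
Normalized counts of the 6 genes in each of the 9 mice, with 1 panel per gene and the groups in the order double knockout, Pkd2 knockout and wild type. Points are mice and lines are group means with bars for the SD; in every panel the 3 Pkd2 knockout mice lie below the 6 others, and for Spink6 they lie at or near 0.

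The 6 genes did not stand at one common level in the double knockout. As a share of the wild type mean, double knockout means were 69.0% (Ppp1r1b), 71.2% (Elfn1), 83.6% (Spns2), 87.0% (Prodh2), 117% (Gtf2h2) and 185% (Spink6). In 4 of the 6 the mean was lower in the double knockout than in wild type. The 3 double knockout values lay below all wild type values for 3 genes (Ppp1r1b, Spns2 and Elfn1), against 9.24% of all genes tested. They lay above them for 1 gene (Gtf2h2), against 9.1% of all genes tested, and the groups overlapped for 2 genes (Spink6 and Prodh2). The choice did not use the comparison of double knockout with wild type itself, but it used the same mice and the same spread shared by the 3 groups. The 6 genes are therefore no independent sample there, and the shares over all genes stand beside them as description only. In that comparison 1 of the 6 passed, where 0.229% of all genes tested did. That gene was Ppp1r1b, for which the description "low only in the Pkd2 knockout" therefore does not hold in that fit. The call rests on an adjusted p of 0.0403 and was lost in 7 of 9 fits that left out 1 mouse and with edgeR on the recovered reads.

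**Figure D2:**
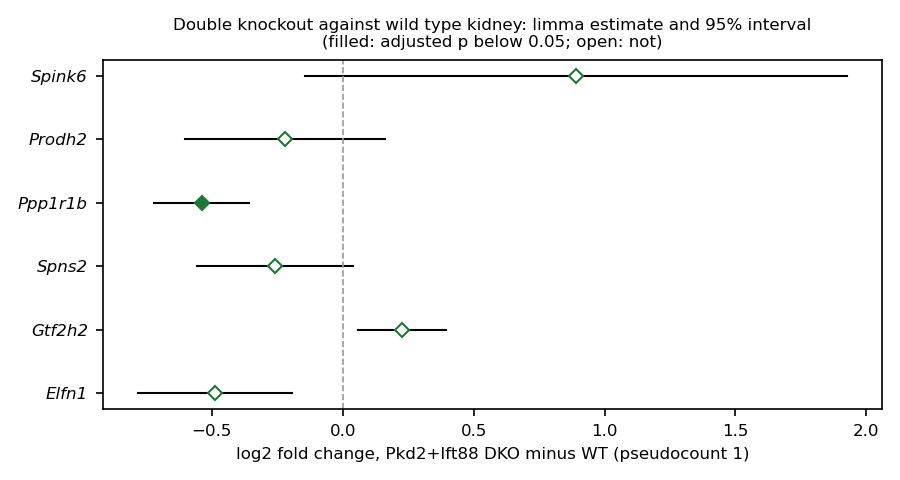
Log2 fold change of the double knockout over wild type for the 6 genes, on the log2(normalized count + 1) scale, with 95% confidence intervals from limma. The interval of Ppp1r1b (-0.72 to -0.36) lies below 0 and passed the adjusted threshold, the intervals of Elfn1 and Gtf2h2 leave out 0 without passing it, and the other 3 span 0.

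Spink6, the protease inhibitor, was nearly undetected in the Pkd2 knockout. Its normalized counts were 237, 270.0 and 476 in the double knockout, 1.99, 0.934 and 0 in the Pkd2 knockout, and 172, 110.4 and 250.4 in wild type. The Pkd2 knockout mice lay far below every other mouse, while the double knockout and wild type mice overlapped. In recovered reads this was 233, 298 and 497 reads in the double knockout, 1 and 0 reads in Pkd2 knockout replicates 2 and 3, and 98 and 230 reads in wild type replicates 2 and 3.

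Pooled over these libraries, the Spink6 rate in the Pkd2 knockout was 0.00270 of that in wild type (95% exact interval 6.83e-05 to 0.0152) and 0.00149 of that in the double knockout (3.77e-05 to 0.00833). The rates leave out Pkd2 knockout replicate 1, the highest of the group: over all 3 mice the normalized mean of 0.974 ± 0.994 was 0.548% of the wild type mean. The intervals cover counting error only, since reads were pooled over mice and the spread between mice is left out. Whether PCR copies of a molecule were removed before counting is not given in the sources used here. Copies counted as separate reads would add error that the intervals leave out. Spink6 was chosen for this difference, so the ratios describe it and test nothing. The count of 0 in Pkd2 knockout replicate 3 allows up to 3 reads, or 0.0719 CPM. The fitted log2 fold change of Spink6 is no bound, since it was -8.13, -6.56 and -4.03 with pseudocounts of 0.1, 1 and 10.

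Spink6 averaged 328 ± 130 in the double knockout and 178 ± 70.1 in wild type (SD, n = 3 each). The difference of 0.89 on the log2 scale (95% interval -0.14 to 1.92) did not pass the test (limma adjusted p = 0.495). Spink6 had the widest relative spread of the 6 genes in both of these groups, with a coefficient of variation of 39.5% in each.

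The rest of the Spink family gave little to set beside it. Of 11 other family members listed, 1 was tested: Spink8, another Kazal-type inhibitor gene, averaged 311 ± 32.8 in the double knockout, 245 ± 26.4 in the Pkd2 knockout and 389 ± 27.1 in wild type. Spink8 fell in the Pkd2 knockout against wild type (log2 fold change -0.67 ± 0.13 SE, adjusted p = 0.0332), and its call was lost when any 1 Pkd2 knockout or wild type mouse was left out (adjusted p up to 0.111). Of 13 tissue kallikreins listed without the mouse Klk1b cluster, from the protease family that Spink6 inhibits in human skin, 2 were tested and neither was called in any comparison by limma or by edgeR, nor had an unadjusted p under 0.05 (0 of 2). Klk1, the true tissue kallikrein of the kidney's connecting tubule, averaged 37925 ± 12673 in the double knockout, 25715 ± 4550 in the Pkd2 knockout and 32854 ± 10245 in wild type, with overlapping groups.

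Prodh2, which opens hydroxyproline breakdown, had 1872, 2386 and 1571 normalized counts in the double knockout, 726, 680.3 and 975 in the Pkd2 knockout, and 2181, 2109 and 2412 in wild type. The Pkd2 knockout mice were the lowest of the 9, and double knockout replicate 2 lay inside the wild type range while replicates 1 and 3 lay below it. The group means were 1943 ± 412 in the double knockout, 794 ± 158 in the Pkd2 knockout and 2234 ± 158 in wild type (SD, n = 3 each). In log2 terms the double knockout differed from wild type by -0.22 (95% interval -0.60 to 0.16; adjusted p = 0.662).

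No other listed gene of the pathway was called, which is near the background. Over all genes tested limma called 2.4% for Pkd2 knockout against wild type, 0.394% for double against Pkd2 knockout and 0.229% for double knockout against wild type. Of 24 listed proline and hydroxyproline genes, 22 were tested and 0 were called in any of the 3 comparisons by limma, or by edgeR on recovered reads. At an unadjusted p under 0.05 they numbered 2 for Pkd2 knockout against wild type, 2 for double against Pkd2 knockout and 1 for double knockout against wild type. Their median log2 fold change for Pkd2 knockout against wild type was -0.01, against 0.00 over all genes. Aldh4a1, the dehydrogenase that acts next to the proline and hydroxyproline oxidases, averaged 15042 in the double knockout, 17790 in the Pkd2 knockout and 13650 in wild type, which missed the threshold (log2 fold change 0.38 for Pkd2 knockout over wild type, adjusted p = 0.052). Lap3, a leucine aminopeptidase and the most abundant uncalled gene of the list, averaged 21743 ± 4077 in the double knockout, 21952 ± 1139 in the Pkd2 knockout and 21965 ± 280.0 in wild type.

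Prodh2 was also set against the proximal tubule markers. Per 1000 counts of the 15 markers, Prodh2 had 1.51, 1.71 and 1.17 counts in the double knockout, 0.561, 0.534 and 0.798 in the Pkd2 knockout, and 1.7, 1.68 and 1.9 in wild type. The Pkd2 knockout mice stayed below all others on this scale, which the choice of Prodh2 for low values there favours. The part of proximal tubule cells in the Prodh2 result was not tested. Of these 15 markers 1 was called higher in the Pkd2 knockout than in wild type (Slc5a12, a lactate transporter) and 1 lower (Miox, the inositol oxygenase). All 3 Pkd2 knockout values lay below all 6 other values for Miox, Cubn, Slc27a2 and Slc13a3, and not for the rest of the 15. Over all genes tested 3.59% had that order. The marker sum does not show it.

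Ppp1r1b, the phosphatase inhibitor DARPP-32, formed 3 separate levels. It had 1266, 1525 and 1388 normalized counts in the double knockout, 769, 752 and 725 in the Pkd2 knockout, and 2079, 1979.9 and 1999 in wild type. No 2 groups overlapped, and the double knockout lay between the Pkd2 knockout and wild type.

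The Ppp1r1b means were 1393 ± 130 in the double knockout, 749 ± 21.9 in the Pkd2 knockout and 2019 ± 52.7 in wild type (SD, n = 3 each). Against wild type it fell in the double knockout (log2 fold change -0.54, 95% interval -0.72 to -0.36; limma adjusted p = 0.0403), with all 3 mice lower. This call was lost in 7 of 9 fits that left out 1 mouse: double knockout replicates 1 and 3, Pkd2 knockout replicates 1 and 2, and each wild type replicate (adjusted p 0.0379 to 0.247 over the 9 fits, log2 fold change -0.61 to -0.47). It was also lost when the double knockout and wild type groups were fitted alone (adjusted p = 0.108), without the third replicates of the Pkd2 knockout and wild type (0.0539) and with edgeR on the recovered reads (0.409).

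The summed thick ascending limb markers had the same order of groups as Ppp1r1b. The 10 markers summed to 231288 to 301331 in the double knockout, 176340 to 213819 in the Pkd2 knockout and 368059 to 385596 in wild type, with no marker at 0. The double knockout mean lay between the other groups for 8 of the 10, but Cldn10 was highest and Cldn19 lowest in the double knockout, both claudins of the tight junction. Of the 10, 5 were called lower by limma in the Pkd2 knockout than in wild type, where 1.25% of all genes tested were. Among these 5 were Umod (uromodulin), Slc12a1 (the Na-K-Cl cotransporter NKCC2), Egf (epidermal growth factor) and Ptger3 (a prostaglandin E receptor). None of the 10 was called in either comparison with the double knockout by limma, with 5 at an unadjusted p under 0.05 for double against Pkd2 knockout and 7 for double knockout against wild type. Per 1000 counts of these markers, Ppp1r1b had 5.24, 5.06 and 6.0 counts in the double knockout, 3.64, 3.52 and 4.11 in the Pkd2 knockout, and 5.39, 5.33 and 5.43 in wild type. On that scale the double knockout and wild type overlapped and the Pkd2 knockout stayed lower than both, which the choice of Ppp1r1b for low values there favours. Marker sums are RNA levels and do not count cells. The part of these cells in the Ppp1r1b result was not tested.

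Among 20 other genes of protein phosphatase 1 and its inhibitors, 17 were tested and 1 was called. Ppp1r1a, inhibitor-1 and the closest relative of DARPP-32, averaged 4093 ± 678 in the double knockout, 2960 ± 258 in the Pkd2 knockout and 5269 ± 571 in wild type. It fell in the Pkd2 knockout against wild type (log2 fold change -0.83 ± 0.13 SE, adjusted p = 0.0175), and all 3 Pkd2 knockout mice lay below the 6 others. That call was lost without Pkd2 knockout replicate 1 or 2 or wild type replicate 1 or 2 (adjusted p up to 0.0787). Its difference between double and Pkd2 knockout did not pass (0.46, adjusted p = 0.223). The catalytic subunit Ppp1cb, the most abundant uncalled gene of the list, averaged 9361 ± 625 in the double knockout, 9133 ± 390 in the Pkd2 knockout and 9213 ± 295 in wild type.

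Of 20 genes for dopamine handling and the kinases and phosphatases that act on DARPP-32, 14 were tested. None was called in any comparison by limma or by edgeR, and those with an unadjusted p under 0.05 numbered 2 for Pkd2 knockout against wild type and 0 in the other comparisons.

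Spns2, the sphingosine 1-phosphate exporter, had 1350.3, 1238 and 1368 normalized counts in the double knockout, 839, 828 and 582 in the Pkd2 knockout, and 1574, 1553 and 1607 in wild type. Replicate 3 was the lowest of the Pkd2 knockout mice, and the double knockout mice all lay below the wild type mice. The means were 1319 ± 70.8 in the double knockout, 750 ± 145 in the Pkd2 knockout and 1578 ± 27.2 in wild type (SD, n = 3 each). The double knockout differed from wild type by -0.26 on the log2 scale (95% interval -0.56 to 0.04), which did not pass (adjusted p = 0.489). Without Pkd2 knockout replicate 3, the library with the high erythroid sum, the log2 fold change of Pkd2 knockout over wild type was -0.92 in place of -1.09.

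In the annotation used for gene order, Spns2 overlaps Mybbp1a, a nuclear protein gene on the opposite strand, and whether strand was used in counting is not given. Mybbp1a averaged 2667 ± 41.5 in the double knockout, 2546 ± 47.2 in the Pkd2 knockout and 2615 ± 153 in wild type, and it was not called in any comparison.

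The sphingosine 1-phosphate pathway list held 23 other genes, of which 22 were tested and 2 were called, both for Pkd2 knockout against wild type. Spns3, a family member beside Spns2 on chromosome 11, had 124, 81.6 and 126 normalized counts in the double knockout, 25.8, 56.1 and 20.5 in the Pkd2 knockout, and 126, 175 and 172 in wild type. As with Spns2, the Pkd2 knockout mice were the lowest 3 of 9, and Spns3 fell against wild type (log2 fold change -2.29 ± 0.35 SE, adjusted p = 0.0165). Its difference of 1.77 in the double over the Pkd2 knockout missed the threshold (adjusted p = 0.083), and the call against wild type was lost without Pkd2 knockout replicate 1 or wild type replicate 2 (adjusted p up to 0.0785).

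Sgpl1, the lyase that destroys sphingosine 1-phosphate, averaged 4149 ± 220.3 in the double knockout, 4271 ± 76.1 in the Pkd2 knockout and 3480 ± 72.5 in wild type. It rose in the Pkd2 knockout against wild type (0.30 ± 0.06 SE on the log2 scale, adjusted p = 0.0403), a call lost in 8 of 9 fits that left out 1 mouse (adjusted p up to 0.134). The other 20 genes were not called in any comparison. Among them Mfsd2a, a lysolipid transporter, averaged 2553 in the double knockout, 2389 in the Pkd2 knockout and 6332 in wild type (adjusted p = 0.362 for double knockout and 0.237 for Pkd2 knockout, both against wild type). The ceramide synthase gene Cers2, the most abundant of them, averaged 10067 ± 405 in the double knockout, 10832 ± 247 in the Pkd2 knockout and 10344 ± 387 in wild type.

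**Figure D3:**
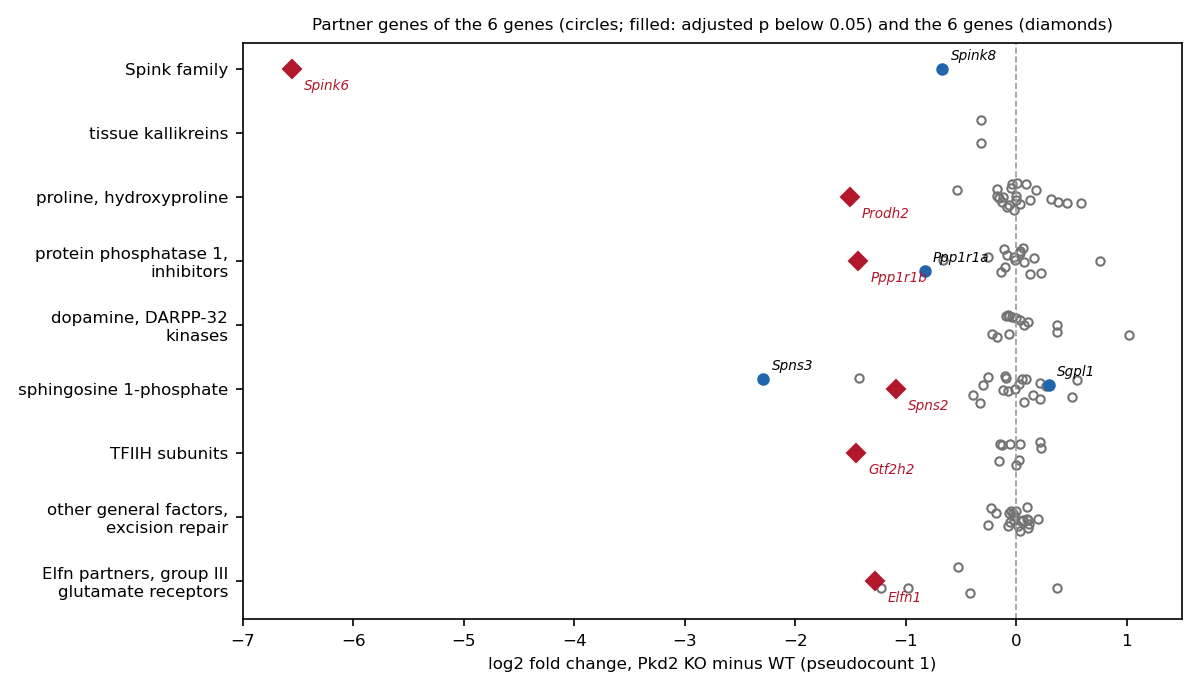
Log2 fold change of Pkd2 knockout over wild type for the listed pathway genes of each of the 6 genes, 1 row per list, with the 6 genes themselves as diamonds. Filled circles passed the adjusted threshold (Spink8, Ppp1r1a, Spns3 and Sgpl1), open circles did not, and Spink6 lies farthest left at -6.56; the listed genes have a median of -0.02.

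Gtf2h2, the TFIIH subunit, showed narrow groups. It had 1580.2, 1641 and 1709 normalized counts in the double knockout, 505, 501 and 534 in the Pkd2 knockout, and 1342, 1377 and 1503 in wild type. No 2 groups overlapped, and the double knockout was the highest of the 3. The means were 1643 ± 64.2 in the double knockout, 514 ± 18.0 in the Pkd2 knockout and 1407 ± 84.9 in wild type (SD, n = 3 each). The excess of the double knockout over wild type was 0.22 on the log2 scale (95% interval 0.06 to 0.39), which did not pass over all genes (unadjusted p = 0.0142, adjusted p = 0.296).

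The rest of its complex gave no calls, which is near the background. Over all genes tested limma called 2.4% for Pkd2 knockout against wild type, 0.394% for double against Pkd2 knockout and 0.229% for double knockout against wild type. All 9 other TFIIH subunits were tested, and 0 were called in any of the 3 comparisons by limma or by edgeR. Those with an unadjusted p under 0.05 numbered 2 for Pkd2 knockout against wild type, 0 for double against Pkd2 knockout and 1 for double knockout against wild type. For Pkd2 knockout against wild type their log2 fold changes ran between -0.16 (Gtf2h5, the smallest subunit) and 0.23 (Gtf2h1, the p62 subunit), where Gtf2h2 had -1.45. Gtf2h1 averaged 2212 ± 185 in the double knockout, 2129 ± 162 in the Pkd2 knockout and 1820.3 ± 150.2 in wild type. Of 21 other general transcription and excision repair genes, all tested, 0 were called in any comparison by limma or by edgeR, with 2, 1 and 0 at an unadjusted p under 0.05 for Pkd2 knockout against wild type, double against Pkd2 knockout, and double knockout against wild type. Ddb1, the DNA damage-binding subunit and the most abundant of these, averaged 14006 ± 803 in the double knockout, 13585 ± 270 in the Pkd2 knockout and 13837 ± 63.5 in wild type.

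Elfn1, the synaptic receptor organiser, had 274, 234 and 220.4 normalized counts in the double knockout, 130.1, 147 and 141 in the Pkd2 knockout, and 327, 316 and 379 in wild type. As for Ppp1r1b, the 3 groups did not overlap and the double knockout lay in between. The means were 243 ± 27.7 in the double knockout, 139 ± 8.48 in the Pkd2 knockout and 341 ± 33.6 in wild type (SD, n = 3 each). The double knockout lay below wild type by 0.49 on the log2 scale (95% interval -0.78 to -0.20), which did not pass over all genes (unadjusted p = 0.00434, adjusted p = 0.204).

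Few of its listed relatives and synaptic partners could be tested: of 11 listed Elfn and Lrfn relatives and group III metabotropic glutamate receptors, 5 were tested, and 0 were called in any comparison by limma or by edgeR. Over all genes tested limma called 2.4%, 0.394% and 0.229% in the 3 comparisons. At an unadjusted p under 0.05 they numbered 2 for Pkd2 knockout against wild type, 0 for double against Pkd2 knockout and 1 for double knockout against wild type. Their median log2 fold change against wild type was -0.53 in the Pkd2 knockout and -0.65 in the double knockout, with 4 of the 5 lower in each. Over all genes these medians were 0.004 and -0.001. Lrfn4, a leucine-rich repeat synaptic adhesion gene, was the most abundant of the 5 and the only 1 higher in both. It averaged 314 ± 18.0 in the double knockout, 351 ± 38.4 in the Pkd2 knockout and 275 ± 57.1 in wild type. Lrfn1, of the same family, averaged 23.5 in the double knockout, 27.97 in the Pkd2 knockout and 66.5 in wild type, a log2 fold change of -1.51 for double knockout over wild type that missed the threshold (adjusted p = 0.120).

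Over all these lists, 151 genes other than the 6 were listed and 113 were tested. For Pkd2 knockout against wild type 1 rose and 3 fell, against a background of 1.14% higher and 1.25% lower, and edgeR called 0. At an unadjusted p under 0.05 they numbered 11 higher and 9 lower. For double against Pkd2 knockout and for double knockout against wild type limma and edgeR called 0, with 5 higher and 3 lower, and 5 higher and 5 lower, at an unadjusted p under 0.05. Their median log2 fold change was -0.02, 0.02 and 0.01 in the 3 comparisons, against 0.00 over all genes in each.

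The 6 genes lie on chromosomes 18 (Spink6), 7 (Prodh2), 11 (Ppp1r1b and Spns2), 13 (Gtf2h2) and 5 (Elfn1) of the GENCODE M21 annotation, which 94.3% of tested genes matched by symbol. Pkd2 itself is on chromosome 5, like Elfn1, and Ift88 is on chromosome 14. The nearest 2 tested genes on either side of each, 24 in all, were called in 1 case: Spns3, beside Spns2, was lower in the Pkd2 knockout than in wild type. That call was also lost with limma on the 7 libraries and without the third Pkd2 knockout and wild type replicates together. Over all genes tested limma called 2.4% for Pkd2 knockout against wild type, 0.394% for double against Pkd2 knockout and 0.229% for double knockout against wild type. At an unadjusted p under 0.05, 5 of the 24 were higher and 4 lower for Pkd2 knockout against wild type. By limma the other comparisons called 0 of the 24, with 3 higher and 2 lower at an unadjusted p under 0.05 for double against Pkd2 knockout and 2 higher and 1 lower for double knockout against wild type, and edgeR called 0 in all 3 comparisons.

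Beside Gtf2h2 lie Naip6 and Naip1, inflammasome sensor genes of a family of near-identical copies between which reads are uncertain, and the tight junction genes Ocln and Marveld2. Naip6 averaged 23.3 ± 7.11 in the double knockout, 43.4 ± 3.90 in the Pkd2 knockout and 19.7 ± 6.52 in wild type, with the Pkd2 knockout highest where Gtf2h2 had it lowest, and was not called (adjusted p = 0.0966 for Pkd2 knockout against wild type). Ocln averaged 1543 ± 82.0 in the double knockout, 1751 ± 102 in the Pkd2 knockout and 1578 ± 128 in wild type.

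Eif3j2, a translation factor gene beside Spink6, varied between mice within groups. It had 9.16, 155 and 7.67 normalized counts in the double knockout, 316, 129.9 and 162 in the Pkd2 knockout, and 5.02, 3.38 and 339 in wild type. High and low mice occurred in the double knockout and wild type groups alike, and Eif3j2 was not called. Beside Ppp1r1b, the antisense transcript 1700003D09Rik overlaps it and averaged 25.4 ± 6.42 in the double knockout, 11.3 ± 4.79 in the Pkd2 knockout and 22.9 ± 4.89 in wild type. It was not called either (adjusted p = 0.194 for Pkd2 knockout against wild type), and without knowing the strand setting its reads cannot be told apart from those of Ppp1r1b.

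**Figure D4:**
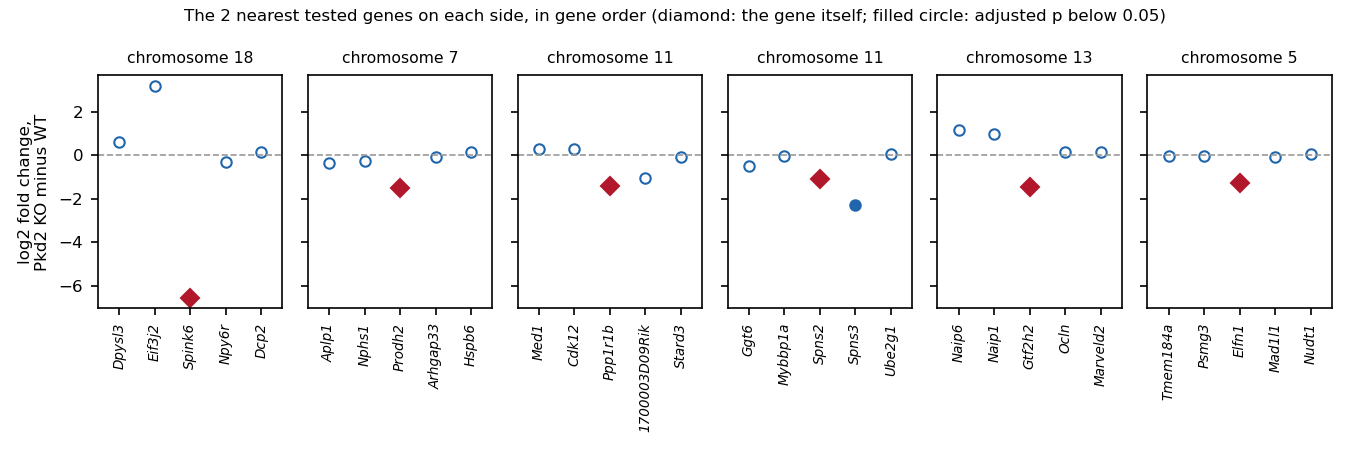
Log2 fold change of Pkd2 knockout over wild type for each of the 6 genes (centre, place 0) and the nearest 2 tested genes on each side in chromosome order, 1 panel per gene. Places count genes and not distance; each of the 6 genes stands below its neighbours except Spns2, and of the 24 neighbours only Spns3, itself lower than Spns2, passed the adjusted threshold.

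The genes most like each of the 6 over the 9 mice were found by Pearson's r on log2(normalized count + 1), among 12088 genes with a mean of at least 50. These 12088 leave out the 6 genes themselves and all clone, Gm, Rik and pseudogene names. The points share their libraries and the 3 groups, so r is a description. For Ppp1r1b these were Prkcq, a protein kinase C (r = 0.977), Tmem72, a membrane protein (0.97), and Mboat2, a lysophospholipid acyltransferase (0.968). For Elfn1 they included Mboat2 (0.99) and the protease inhibitor-like Wfdc15b (0.982). In both sets the double knockout mean lay between the other groups, as it also did for the most alike genes of every other gene of the 6. Prkcq averaged 302 ± 21.9 in the double knockout, 201 ± 16.9 in the Pkd2 knockout and 423 ± 18.1 in wild type.

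For Spns2 they were Parm1, a mucin-like membrane protein (r = 0.975), Atp6v1g3, a proton pump subunit of intercalated cells (0.968), and Spns3 (0.955). For Prodh2 they were D17Wsu92e (0.962), Sgsm1 (0.953) and Pkp4, a junction plaque protein (0.953). Spink6 and Gtf2h2 shared theirs: Isoc1, Cnbp and Parm1 had r of 0.964, 0.96 and 0.957 with Spink6 and of 0.938, 0.939 and 0.94 with Gtf2h2. These 3 differed little in size between groups, with Isoc1 at 3473 ± 169 in the double knockout, 2866 ± 111 in the Pkd2 knockout and 3482 ± 121 in wild type.

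Among the 6 genes themselves, r over the 9 mice ranged over 0.844 to 0.987 in the 15 pairs, which the choice of genes fixes. With the group means removed it ranged over -0.772 to 0.731 over the same 15 pairs, with few degrees of freedom, and nothing is read from it.

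For Spns2 and Elfn1 the next genes in line were close in adjusted p, and for the other 4 they were farther off. The larger of the 2 adjusted p-values that chose them was 0.0409 for Spns2 and 0.0468 for Elfn1, just inside the threshold, and 0.0279 or less for the others. Just outside it was Dsg2, the epithelial desmosomal cadherin, with 0.051 and means of 634 ± 74.6 in the double knockout, 364 ± 50.2 in the Pkd2 knockout and 564 ± 57.3 in wild type. Next came Gm5828, a predicted gene, with 0.0647 and normalized counts of 44.8 to 46.2 in the double knockout, 0 to 0.934 in the Pkd2 knockout and 2.01 to 28.3 in wild type. Prkcq had 0.0683 and Tmem72 had 0.0721. In all, 21 genes with the same order of means had a larger adjusted p between 0.05 and 0.1.

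Among them Miox, the tubular inositol oxygenase, averaged 38583 ± 4129 in the double knockout, 28271 ± 1448 in the Pkd2 knockout and 44632 ± 423 in wild type. Slc8a1, the sodium-calcium exchanger, averaged 2008 ± 93.0 in the double knockout, 1382 ± 63.0 in the Pkd2 knockout and 2399 ± 370.4 in wild type. Sms, the spermine synthase gene, averaged 892 ± 58.7 in the double knockout, 658 ± 41.5 in the Pkd2 knockout and 904 ± 53.3 in wild type. These genes shared the low Pkd2 knockout level without passing both thresholds.

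How many of the 6 passed both thresholds depended on the mice and the test. It was 6 with other pseudocounts, with TMM scaling and without the third Pkd2 knockout and wild type replicates, and 3 to 5 when any 1 mouse was left out. With edgeR or limma on the 7 libraries with recovered reads it was 2, Spink6 and Gtf2h2, which also passed both thresholds in every other fit run. Membership of Prodh2, Spns2 and Elfn1 was less firm. Their limma call for double over Pkd2 knockout was lost in 4 (Prodh2), 8 (Spns2) and 8 (Elfn1) of 9 fits that left out 1 mouse. The adjusted p there reached 0.125 for Prodh2, 0.125 for Spns2 and 0.165 for Elfn1.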

How the data were processed

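The authors deposited 1 table of normalized counts per gene (signal: reads scaled by DESeq2 size factors), made with STAR 2.5.0, HTSeq 0.6.1 and DESeq2 per the submitters' processing notes. Build, annotation and strand setting were not given in the sources used here. Groups came from the labels, and the series text calls the replicates biological. Limma 3.58.1 (R 4.3.3) was fitted to log2(normalized count + 1) over the 15740 genes whose mean across the 9 libraries reached 10, with 1 mean per group, an intensity trend and two-sided Benjamini-Hochberg adjusted p below 0.05. This scale understates the change of low genes. The value of 1 read (0.906 to 1.13) gave whole reads for 7 libraries at a tolerance of 0.05, not for wild type replicate 1 and Pkd2 knockout replicate 1, where it lies too close to 1; edgeR 4.0.16 (quasi-likelihood) was run on those 7. If mice sharing a name prefix are related, p-values are too small. The 6 genes and all lists were chosen with earlier results of these data known. Named genes are the 6, Pkd2 and Ift88, each list's called genes and most abundant uncalled gene, the most alike genes, and neighbours. Genes next in line were also included. A few genes that these rules name are not reported here. Aldh4a1, Gtf2h5, Mfsd2a, Lrfn1 and the markers named were picked after their values were seen. The fit was tested on simulated data.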

Additional observations from a re-analysis of the deposited data

How the results depend on the processing

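No value of the 6 genes changed sign in any comparison under any alternative run. Leaving out each mouse gave 70 to 436 genes called for Pkd2 knockout against wild type (377 with all mice), 8 to 155 for double against Pkd2 knockout (62), 18 to 58 for double knockout against wild type (36), and 0 to 1 of the 6 genes in that last comparison (1). Without the third Pkd2 knockout and wild type replicates together, the double knockout counts were 311 against Pkd2 knockout and 115 against wild type, with 0 of the 6 genes called against wild type. Fits of only the groups compared gave 26 genes for double against Pkd2 knockout and 0 of the 6 against wild type, with 3 of the 6 past both thresholds. On the 7 libraries with recovered reads, edgeR called 11 genes for Pkd2 knockout against wild type, 10 for double against Pkd2 knockout and 10 for double knockout against wild type, and limma called 13, 11 and 11, each with 0 of the 6 in the last comparison. The main fit did not treat the replicate numbers as pairs. Correlations of deviations from group means ran over -0.142 to 0.215 for same-numbered mice. For differently numbered mice of different groups they ran over -0.23 to 0.173. With so few mice, these correlations cannot settle whether the numbers pair them. With the replicate block the counts were 217, 15 and 20, with 0 of the 6 genes called for double knockout against wild type (Ppp1r1b adjusted p = 0.130) and 3 of the 6 past both thresholds. With no filter Elfn1 missed the second threshold, so that 5 remained. Depth limits what can be said of Spink6 in the Pkd2 knockout, where the recovered reads were 1 and 0.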
